A study of Mus musculus with 32 samples.

Results

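The subject is the older and lesser known relatives of MERVL among mouse endogenous retroviruses: the 109 repeat subfamilies that the deposited tables assign to the family ERVL and the class LTR, across oocytes, early embryos and embryonic stem cells. They were taken by name from the repeat rows, which read subfamily, family and class. Of 113 ERVL subfamilies, the 4 of the MERVL element itself (MERVL-int, MERVL_2A-int, MT2_Mm and MT2C_Mm) were left out and serve only as reference. The 109 members stand among 680 LTR subfamilies and 1153 repeat subfamilies in all. The rule uses names alone, but it was set with earlier results of these data known.

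ERVL elements are endogenous retroviruses, remnants of retroviral infections of ancestral germ lines that are inherited as part of the genome. A complete copy has an internal part that once coded for viral proteins between a pair of long terminal repeats (LTRs), which hold the promoter, and most copies have been reduced by recombination to a lone LTR. In mice the young MERVL element and its LTR MT2_Mm are transcribed at the 2-cell stage, when the embryonic genome is activated, under factors such as DUX. The older members have names of their own: MT2A and MT2B are related LTRs found in rodents, MLT2, LTR16, LTR33 and MER names mark LTRs from insertions shared among mammals, and names ending in int are internal parts.

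RNA was read from 32 libraries in 16 groups of 2. Growing oocytes from ovaries of postnatal day 14 (P14) came from transgenic females with the histone variant H3.3 in its normal form (H3.3WT) or as H3.3K4M, with methionine in place of lysine 4, the residue whose methylation marks promoters. The sources used here do not name the promoter of the transgene. All other samples were WT. Metaphase II (MII) oocytes came from females of 8 weeks or 12 months. Embryos of the 2-cell (2C) and 4-cell (4C) stages came from in vitro fertilization with oocytes of females of 6 to 8 weeks and were cultured with aphidicolin (APH, which blocks replicative DNA polymerases), cycloheximide (CHX, which blocks translation), MG132 (which blocks the proteasome) or the vehicle DMSO. A further 2-cell group came from 12-month females and received no treatment, so that age and vehicle cannot be told apart in its comparison. AB2.2 embryonic stem cells (ESC), a single line, received CHX, MG132 or DMSO. The sources used here give no doses, times of exposure or numbers of cells per library. Nothing says whether replicates came from separate females or cultures, and a p-value then measures the spread between these libraries alone, which may be technical.

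Total counts ran from 14313718 to 34713159 per library, and no pair of libraries was identical. All 8 oocyte markers had counts in every P14 and MII library. Their summed level was 29459 to 32768 and 11106 to 12028 CPM, the count scaled to 1 library total for all. At 2 cells it was 4350 to 10578 CPM. All 8 stem cell markers had counts in every ESC library (4707 to 5953 CPM). Their sum does not set stem cells apart, at 5583 to 6284 CPM in P14 and 1413 to 6735 CPM in 4-cell libraries. The 5 matched of 6 2-cell markers summed to 2.76 to 965.82 CPM at 2 cells and 24.55 to 336.62 CPM at 4 cells, drug groups included. Of 13 cumulus and granulosa cell markers, 4 to 5 were at 0 in P14 libraries and 1 to 9 in MII libraries, where their summed level was 3.39 to 8.97 and 77.9 to 134.53 CPM. At 4 cells that sum ran from 12.1 to 342.56 CPM, and 6 fibroblast markers summed to 572 to 1292 CPM in stem cells. The part of such cells in the results was not tested. In bulk samples fewer cells of a type and less RNA per cell cannot be told apart. Oocyte and embryo libraries were made by Smart-seq2 and stem cell libraries with another kit, so no test was made between them.

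A subfamily's count sums reads over its copies, which may lie inside genes, so a few copies can carry it. CPM is not corrected for the length or the number of copies, so it compares libraries for a member and not members with each other. All 12 members with the highest mean CPM, namely RMER15, MT2B1, MT2B, MT2A, HERVL40-int, MT2B2, RMER10A, MER21C, RMER15-int, RMER10B, LTR16C and MER21B, held together 79.88% of the members' counts. The 4 MT2 LTRs took 44.81% of these counts, 7 rodent RMER and RLTR subfamilies 23.58%, 13 other internal parts 11.84%, 17 MER LTRs 5.7%, 10 MLT2 LTRs 4.96%, 41 other LTRs 4.38%, 12 LTR16 subfamilies 3.32% and 5 LTR33 subfamilies 1.4%. A single member had no count in any library. The low-count filter removed 10 members from every comparison, 99 were tested in at least 1 and 61 in all 15, and 76 were called in at least 1.

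As a share of all counts, all members together were lowest in growing oocytes and stem cells and highest in early embryos. They took 0.0608% and 0.0554% of counts in P14 oocytes with H3.3WT and 0.1294% and 0.1529% in MII oocytes of 8-week females. In vehicle 2-cell embryos they took 0.2957% and 0.3198%, in vehicle 4-cell embryos 0.2517% and 0.2532%, and in vehicle stem cells 0.0465% and 0.0556%. The libraries of the embryo stages lay above all others of this series without drug, and those of P14 and ESC overlapped. Where stem cells are set beside oocytes or embryos, cell type and library kit cannot be told apart. At 2 cells the share was 0.1304% and 0.116% with CHX, 0.16% and 0.1612% with MG132 and 0.2032% and 0.2688% with APH, all below the vehicle libraries. At 4 cells the CHX and MG132 libraries (0.3095% and 0.2777%, 0.2686% and 0.2908%) lay above the vehicle ones, and the APH libraries (0.245% and 0.1958%) below them. The order depends on the denominator. As a share of repeat counts alone, the group means were highest in MII oocytes (2.378% at 8 weeks and 2.729% at 12 months), 1.5118% in vehicle 2-cell and 1.3605% in vehicle 4-cell embryos, 1.6026% in vehicle stem cells and 0.1878% in P14 oocytes with H3.3WT. On that scale the 4-cell means with APH (1.2104%), CHX (1.1271%) and MG132 (1.1938%) lay below the vehicle mean. At 2 cells the vehicle libraries had 1.4869% and 1.5366% of repeat counts. Those with CHX had 1.4805% and 0.9128%, both lower. Libraries with MG132 (1.5306% and 0.9931%) and APH (1.1156% and 1.5434%) were not apart from the vehicle ones. Of the 109 members, 26 had their highest group mean in vehicle 2-cell embryos, 22 in 4-cell embryos with CHX and 18 in 2-cell embryos with APH, and 46 had their lowest in P14 oocytes with H3.3K4M. These counts include members too scarce to test, and the same count was not made over all repeats. In P14 libraries 1 repeat of the ERVL-MaLR family, MTA_Mm-int, took 19.0% to 22.92% of all counts. Its part in these ranks was not tested.

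**Figure D1:**
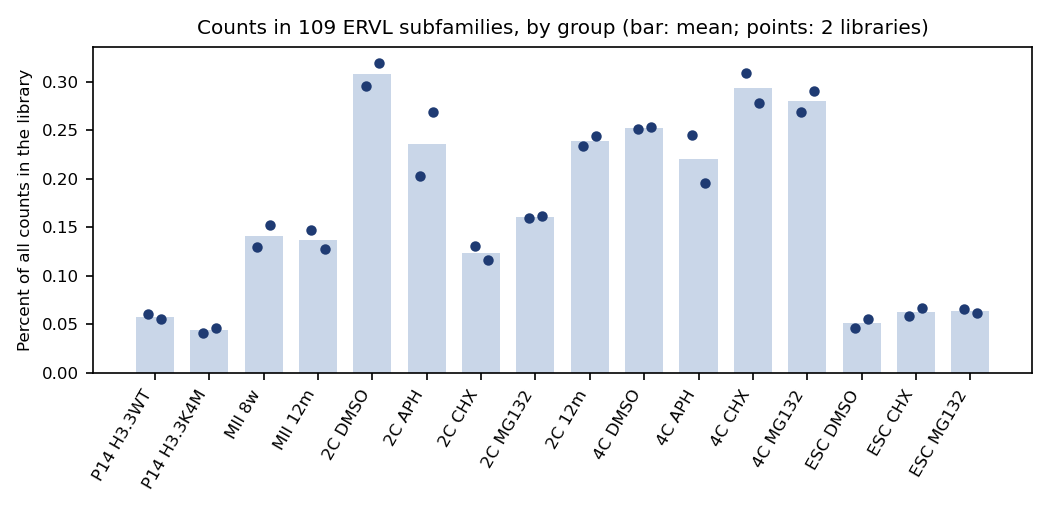
The percentage of all counts in the 109 ERVL members (vertical axis) for the 16 groups (horizontal axis), with a bar for the mean and a point for each of 2 libraries. The mean of the vehicle 2-cell group (0.2957% and 0.3198%) is the highest, close to that of the 4-cell CHX group, and the P14 and stem cell groups are lowest.

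**Figure D2:**
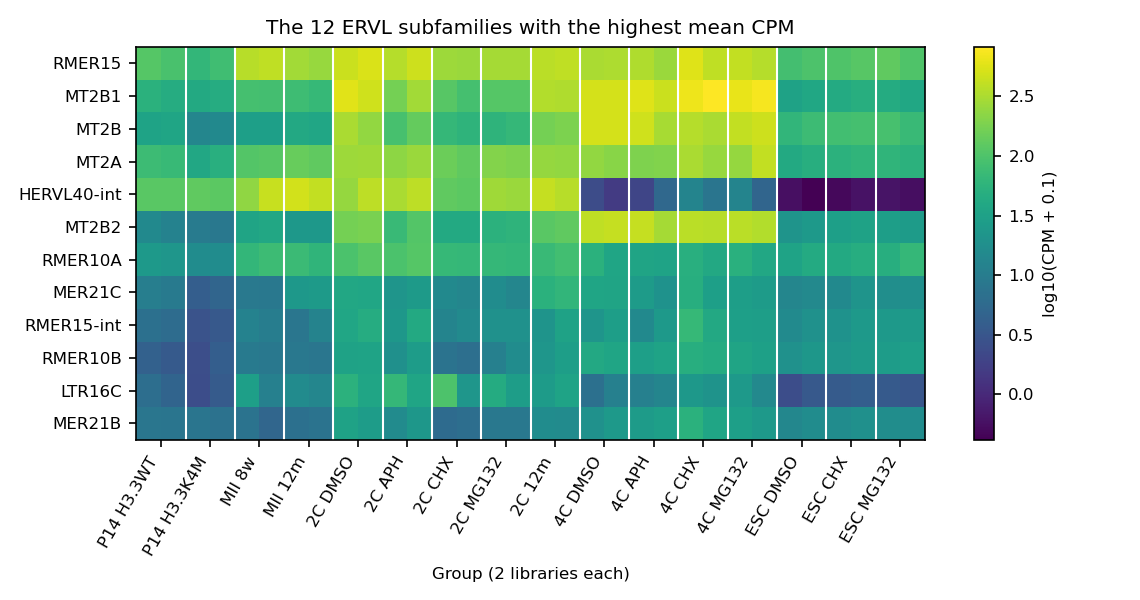
The level of the 12 members with the highest mean CPM, as log10(CPM + 0.1) by colour, in each library (columns, 2 per group). HERVL40-int is bright in oocytes and 2-cell embryos and dark at 4 cells and in stem cells, while MT2B2 is brightest at 4 cells.

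Differences were tested with edgeR's quasi-likelihood test on counts of all genes and repeats, with p adjusted by Benjamini-Hochberg over repeat subfamilies; a member is called where adjusted p is under 0.05. Changes are log2 fold changes with their standard error (SE) on the scale of TMM. TMM sets library factors on the assumption that most rows do not change. That scale can differ from the CPM ratio. Fitted changes from 8-week MII oocytes to vehicle 2-cell embryos are lower than log2 CPM ratios by 0.81. Those from 2 to 4 cells are higher by 0.41. The median gene on that scale was not always near 0. It was -0.57 from 2 to 4 cells and 0.44 with CHX at 4 cells. From 8-week and 12-month oocytes to embryos it was 0.33 and 0.19. With CHX at 2 cells and from P14 to MII it was -0.26 each. Beside each count of members stands the share of all tested repeat subfamilies that were called in that direction.

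**Figure D3:**
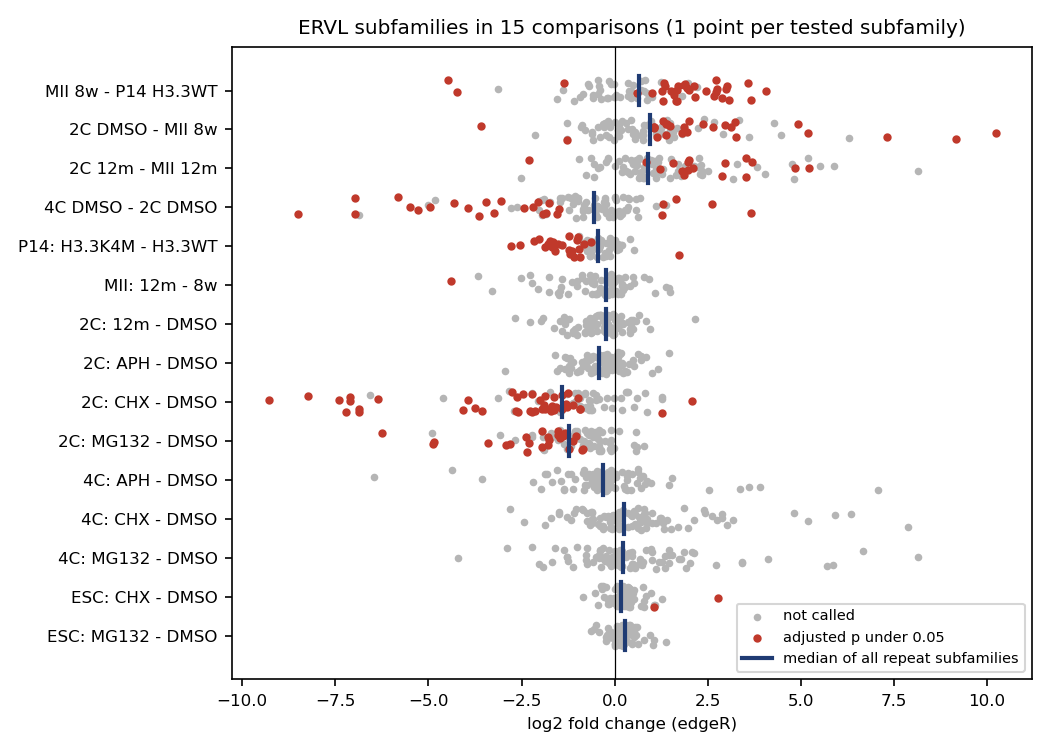
The log2 fold change (horizontal axis) of each tested member (point) in the 15 comparisons (rows), red where called, with the median of all repeat subfamilies as a bar. The members' red points lie mostly to the right in the first 3 rows, and to the left between 2 and 4 cells, with H3.3K4M and, at 2 cells, with CHX and MG132.

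Growing oocytes and MII oocytes differed in 33 of 76 tested members: 30 were higher in MII oocytes of 8-week females than in P14 oocytes with H3.3WT, and 3 were lower. These are 39.5% and 3.95% of the tested members, where 36.0% of all repeats were called higher and 11.0% lower. The members' median change was 0.75, against 0.66 over all repeats. Stage, genotype (H3.3WT transgene against WT) and age of the female change together in this comparison and cannot be told apart. Without P14 H3.3WT replicate 1 the members called were 18, and without replicate 2 they were 18. The MLT2 LTRs had 5 of 10 members higher and the LTR33 group 3 of 5.

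The LTR80A subfamily had 0.856 and 0.676 CPM in P14 oocytes with H3.3WT and 16.9 and 13.0 CPM in MII oocytes of 8-week females, without overlap, a rise of 4.07 ± 0.43 (SE, n = 2 and 2; edgeR adjusted p = 0.000175). The internal part ERV3-16A3_I-int went from 0.325 and 0.322 CPM to 4.49 and 4.54 CPM (3.58 ± 0.48; edgeR adjusted p = 0.000561). LTR53 went from 0.118 and 0.193 to 1.96 and 2.66 CPM (3.66 ± 0.70; edgeR adjusted p = 0.00305), a call that was lost without P14 H3.3WT replicate 1 (3.24; edgeR adjusted p = 0.056). Each of these was low in both growing oocyte libraries and higher in both MII libraries of 8-week females. MII oocytes of the older females had less of each. There LTR80A had 0.71 and 0.81 CPM, near its P14 level. In the same libraries ERV3-16A3_I-int (1.5 and 1.37 CPM) and LTR53 (0.607 and 0.281 CPM) lay between the P14 and the 8-week levels.

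Against this direction, LTR16E1 and LTR84b fell. LTR16E1 had 3.95 and 3.74 CPM in P14 oocytes and 0.362 and 0.0354 CPM in MII oocytes (fell by 4.48 ± 0.78; edgeR adjusted p = 0.00191). LTR84b had 8.06 and 7.89 CPM and then 0.362 and 0.603 CPM (fell by 4.23 ± 0.50; edgeR adjusted p = 0.000334). The third member called lower, LTR16D (fell by 1.37; edgeR adjusted p = 0.0374), lost its call without any 1 of the 4 libraries (edgeR adjusted p = 0.0544 to 0.173). Among the members with most counts, RMER15 (1.71 ± 0.20) and RMER10A (1.34 ± 0.24) rose, and MT2A (109 and 115 CPM in MII, 76.0 and 68.5 in P14) and MT2B (30.0 and 30.4 CPM in MII, 34.0 and 35.8 in P14) were not called.

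From the MII oocyte to the 2-cell embryo, the step at which MERVL-int rose by 8.25 ± 0.46, 26 of 96 tested members were called. In vehicle embryos of young females 24 were higher and 2 lower; of all repeats, 30.4% were higher and 2.98% lower. The members' median was 1.06, against 0.95 over all repeats. The count was 13 without vehicle 2-cell replicate 2, 9 without 8-week MII replicate 1 and 17 without MII replicate 2. From 12-month MII oocytes to embryos of 12-month females, which share no library with the first comparison, 16 were higher and 1 lower, beside 25.9% and 1.29% of all repeats, with a median of 1.13 against 0.90. That count was 9 or 6 without 2-cell 12-month replicate 1 or 2, and 9 or 4 without 12-month MII replicate 1 or 2. Of the members called higher, 13 were called in both, 54.2% of the first list and 81.2% of the other: LTR102_Mam, LTR16E1, LTR84b, MER21-int, MER21C, MER77B, MLT2B1, MLT2C1, MT2B, MT2B1, MT2B2, RLTR28B and RMER10B. Over all repeats 201 were called higher in both, 65.7% and 77.0% of the lists.

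MT2B, MT2B1 and MT2B2 rose in both age groups, and the related MT2A was not called in either. MT2B had 30.0 and 30.4 CPM in 8-week MII oocytes and 311 and 241 CPM at 2 cells with vehicle (2.37 ± 0.24; edgeR adjusted p = 0.00012). MT2B1 went from 88.0 and 83.9 to 581 and 479 CPM (1.81 ± 0.23) and MT2B2 from 35.1 and 39.8 to 170 and 180 CPM (1.41 ± 0.24). In 12-month samples the 3 changes were 1.82, 1.86 and 2.00, and all 3 calls were kept in both comparisons when any 1 library was left out. MT2A went from 109 and 115 to 273 and 281 CPM, which is 0.49 on the fitted scale. Its CPM was higher in both embryo libraries than in both oocyte libraries, and the fitted change was not called (edgeR adjusted p = 0.127).

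MER21-int, an internal part, was at 0 counts in both 8-week MII libraries and at 3.92 and 10.02 CPM in vehicle 2-cell embryos. With a floor of 3 counts for the oocyte group, it was at least 128-fold higher in embryos, a bound that covers counting error only. In 12-month samples it went from 0.179 and 0 CPM to 4.70 and 4.12 CPM (5.22 ± 0.91; edgeR adjusted p = 0.0037). MER70-int was also at 0 in both 8-week MII libraries and had 3.75 and 2.93 CPM at 2 cells, at least 62.2-fold higher, but its call was lost without any 1 of the 4 libraries (edgeR adjusted p = 0.0596 to 0.12). LTR16D2 had 2 counts in the oocyte group and 140 in embryos, a ratio of 69.9 with a counting interval from 19.0 to 583, and lost its call without MII replicate 1 (edgeR adjusted p = 0.0991) or 2 (0.0769).

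LTR16E1 and LTR84b, at under 1 CPM in all 4 MII libraries, were higher again at 2 cells. LTR16E1 had 9.42 and 11.1 CPM with vehicle (4.91 ± 0.99; edgeR adjusted p = 0.00569) and 7.23 and 10.4 CPM in 12-month embryos, against 0.928 and 0.246 in their oocytes (3.52; edgeR adjusted p = 0.0182). LTR84b had 5.81 and 7.50 CPM (2.95; edgeR adjusted p = 0.0109; 0.0716 without 8-week MII replicate 1). The 12-month calls of LTR16E1 and LTR84b did not hold without 12-month MII replicate 2 (edgeR adjusted p = 0.137 and 0.135), without 2-cell 12-month replicate 2 (0.0695 and 0.112) and, for LTR84b, without MII replicate 1 (0.0526). In all 4 libraries of vehicle and 12-month 2-cell embryos both members were above all 4 MII libraries.

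LTR102_Mam rose in 12-month samples from 0.321 and 0.0703 to 2.10 and 4.58 CPM (3.68; edgeR adjusted p = 0.0205), which did not hold without replicate 2 of the embryos (0.119) or of the oocytes (0.157). LTR82B had 2 counts in 12-month oocytes and 82 in 12-month embryos, a ratio of 41.0 with a counting interval from 11.0 to 344, and no leave-one-out fit called it (edgeR adjusted p = 0.0792 to 0.184). The members called lower were LTR80A and MLT2C2 in young samples and LTR40c in 12-month samples. LTR80A fell by 3.58 to 0.455 and 3.84 CPM (edgeR adjusted p = 0.0246), which was 0.0667 without vehicle 2-cell replicate 1 and 0.0679 without MII replicate 1. MLT2C2 (9.53 and 6.56 to 5.92 and 5.49 CPM; edgeR adjusted p = 0.0343) lost its call without 2-cell replicate 1 (0.138) or 2 (0.155) or MII replicate 1 (0.14), with library sizes from genes only (0.0684) and with the replicate block (0.0553). LTR40c (20.8 and 20.2 to 3.99 and 7.08 CPM; edgeR adjusted p = 0.017) lost it without any 1 of the 4 libraries (0.0543 to 0.115).

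Between 2 and 4 cells members were called in both directions, at shares near those of all repeats. Of 96 tested, 5 were higher and 21 lower in vehicle 4-cell embryos. These are 5.21% and 21.9% of the tested members, beside 7.36% and 19.7% of all repeats. The members' median was -0.85 against -0.56 over all repeats and -0.57 over all genes. The count of 26 was 17 without vehicle 2-cell replicate 2 and 16 without vehicle 4-cell replicate 2. The MT2 LTRs had 2 of 4 members higher and none lower, the MLT2 LTRs 1 higher and 4 lower, and the group of other LTRs none higher and 10 lower of 31 tested.

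HERVL40-int, the internal part with most counts, was an RNA of oocytes and 2-cell embryos. It had 117 and 116 CPM in P14 oocytes, 235 and 428 CPM in 8-week and 491 and 407 CPM in 12-month MII oocytes, and 247 and 383 CPM in vehicle 2-cell embryos. At 4 cells 2.31 and 1.44 CPM were left, a fall of 6.98 ± 0.51 (edgeR adjusted p = 1.6e-05). Vehicle stem cells, whose libraries were made with another kit, had 0.463 and 0.316 CPM. The rise from P14 to MII (1.33; edgeR adjusted p = 0.0111) was lost without P14 H3.3WT replicate 1 (0.0919) or 2 (0.0673).

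MER70A and MER73 followed the same course at a lower level. MER70A had 35.1 and 24.6 CPM at 2 cells and 0.213 and 0.585 CPM at 4 cells (fell by 5.82 ± 0.57; edgeR adjusted p = 9.3e-05). MER73 had 22.5 and 50.7 CPM and then 0.668 and 0.550 CPM (fell by 5.50 ± 0.64; edgeR adjusted p = 0.000272). LTR108e_Mam, with 0.735 and 3.44 CPM at 2 cells, was at 0 counts in both vehicle 4-cell libraries, at least 42.5-fold lower. The calls of HERVL40-int, MER70A, MER73 and LTR108e_Mam at this step were kept under every alternative run.

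The 5 members called higher at 4 cells were MER21-int, MER77, MT2B2, MLT2C2 and MT2B. MER21-int reached 56.7 and 78.0 CPM (3.66 ± 0.71; edgeR adjusted p = 0.00547), and MER77 went from 6.79 and 7.39 to 39.5 and 25.7 CPM (2.62 ± 0.55; edgeR adjusted p = 0.00692). MT2B2 went to 402 and 417 CPM (1.64 ± 0.24; edgeR adjusted p = 0.000924) and MT2B to 496 and 508 CPM (1.28 ± 0.23; edgeR adjusted p = 0.00318). The 4 reference subfamilies also went in both directions at this step. MT2C_Mm rose by 5.01 ± 0.26, MERVL-int and MERVL_2A-int fell (-1.28 ± 0.34 and -0.82 ± 0.25), and MT2_Mm was not called (-0.24). MLT2C2 (9.20 and 11.8 CPM, edgeR adjusted p = 0.0381) lost its call without any 1 of the 4 libraries (0.064 to 0.181), with library sizes from genes only (0.0583) and with the replicate block (0.0621).

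**Figure D4:**
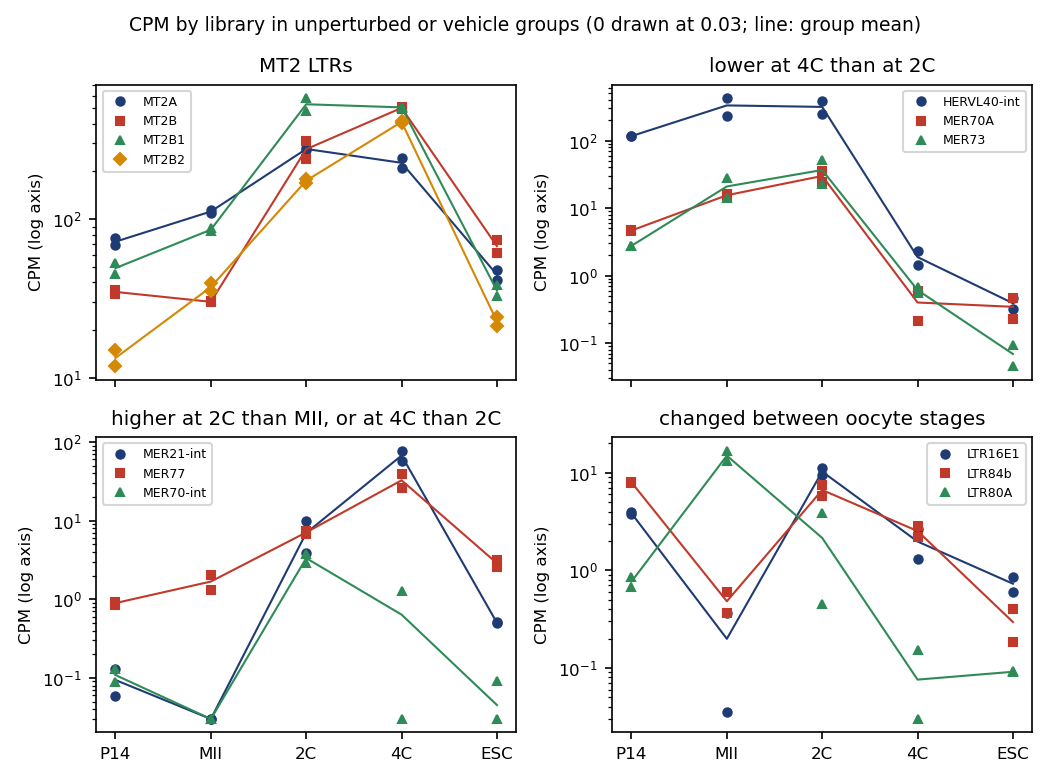
CPM on a log axis for 13 members in vehicle or unperturbed groups from P14 oocytes to stem cells (points for libraries, lines for group means, 0 drawn at 0.03). The P14 group carried the H3.3WT transgene, and stem cell libraries were made with another kit. The MT2 LTRs are highest in embryos, HERVL40-int, MER70A and MER73 drop between 2C and 4C, MER21-int and MER77 are highest at 4C, and LTR16E1 and LTR84b have a trough in MII oocytes of 8-week females, where LTR80A has its peak (12-month samples are not drawn).

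In growing oocytes with H3.3K4M, 23 of 69 tested members were lower and 1 higher than with H3.3WT. The members called lower were 33.3% of those tested, near the 29.2% of all repeats, and 3.16% of all repeats were higher. The median was -0.64 against -0.45 over all repeats, and 61 of the 69 had a value below 0. A value above 0 was found in 11.6% of the tested members and in 18.1% of all tested repeats. Leaving out any 1 library gave 17 to 21 called members. The MLT2 LTRs had 6 of 10 members lower with a median of -1.07, the MT2 LTRs 2 of 4, the rodent group 2 of 7 and the LTR16 group 1 of 8 tested.

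LTR16E1 was the exception. It had 3.95 and 3.74 CPM with H3.3WT and 10.03 and 14.4 CPM with H3.3K4M, without overlap, a rise of 1.73 ± 0.21 (edgeR adjusted p = 0.000208). The largest falls among members with at least 1 CPM were those of MLT2C2, MLT2B5 and MER70B. MLT2C2 had 1.003 and 1.10 CPM with H3.3WT and 0.0367 and 0.235 with H3.3K4M (fell by 2.77 ± 0.54; edgeR adjusted p = 0.00294), MLT2B5 2.45 and 2.25 against 0.588 and 0.412 (fell by 2.17 ± 0.34; 0.000917), and MER70B 1.18 and 1.19 against 0.257 and 0.353 (fell by 1.86 ± 0.39; 0.00427). All 4 calls were kept under the alternatives run.

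Among members with more counts, MLT2B4 had 6.20 and 5.64 CPM with H3.3WT and 1.47 and 1.88 CPM with H3.3K4M (fell by 1.74 ± 0.24; edgeR adjusted p = 0.000413). MT2B had 34.0 and 35.8 against 13.4 and 15.2 CPM (fell by 1.21 ± 0.17; edgeR adjusted p = 0.000495). The fall of MER21C was 1.08 ± 0.20 and that of RMER15-int 0.99 ± 0.22. MT2A (76.0 and 68.5 against 39.0 and 49.5 CPM; edgeR adjusted p = 0.0108) lost its call without H3.3K4M replicate 1 (0.0764) or H3.3WT replicate 1 (0.062) or 2 (0.0538), and LTR16C (edgeR adjusted p = 0.0222) without H3.3K4M replicate 1 (0.0961) or H3.3WT replicate 1 (0.197). HERVL40-int, at 117 and 116 against 129 and 120 CPM, MT2B1 and RMER15 were not called. The reference MERVL-int fell by 1.06 ± 0.18.

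With age of the female, 1 of 73 tested members was called in MII oocytes and none of 95 at 2 cells. In simulated counts, with changed rows drawn from all genes and repeats, the MII age comparison recovered 8.57% of 4-fold and 42.6% of 8-fold changes. The APH comparison of the same 2-cell fit recovered 13.8% and 52.5%. Few calls therefore do not show that few members changed. In MII oocytes 0.241% of all repeats were higher and 0.843% lower at 12 months, and the members' median was -0.33 against -0.22. The call was LTR80A, at 16.9 and 13.0 CPM at 8 weeks and 0.714 and 0.808 CPM at 12 months (fell by 4.39 ± 0.40; edgeR adjusted p = 0.012), without overlap. Without 12-month replicate 1 its adjusted p was 0.103, and without replicate 2 it was 0.176, at values of -4.30 and -4.50, while 5 members were called without 8-week replicate 1 and 5 without replicate 2. The level at 12 months was near that of P14 oocytes (0.856 and 0.676 CPM). Among embryos LTR80A had 2.28 and 2.15 CPM at 12 months and 0.455 and 3.84 CPM in the vehicle group, which overlap. For the 2-cell comparison edgeR called no member, 0.0% of all repeats higher and 0.0984% lower, with 1 member higher and 3 lower before adjustment (p under 0.05) and 0 by DESeq2 (median -0.28 against -0.22).

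At 2 cells many members were lower with CHX, as were many other repeats. Of 95 tested, 42 were lower and 2 higher than with vehicle, beside 50.6% and 1.67% of all repeats; the members' median was -1.27 against -1.42. With MG132 25 were lower and none higher, beside 37.7% and 0.394% of all repeats, with a median of -1.02 against -1.22 (no member was higher at an unadjusted p under 0.05 or by DESeq2). The called shares of members were 44.2% lower with CHX and 26.3% with MG132. CHX gave 25 called members without CHX replicate 1 and 21 without vehicle replicate 2. MG132 gave 7 without MG132 replicate 1, 10 without MG132 replicate 2 and 13 without vehicle replicate 2. Both drugs are compared with the same vehicle libraries, so their changes are not independent.

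The MT2B group fell with both drugs. MT2B1, at 581 and 479 CPM with vehicle, had 114 and 87.4 CPM with CHX (fell by 2.00 ± 0.31; edgeR adjusted p = 0.000663) and 111 and 110 CPM with MG132 (fell by 2.39 ± 0.32; edgeR adjusted p = 0.000532). MT2B, at 311 and 241 CPM with vehicle, had 65.0 and 58.1 CPM with CHX and 57.1 and 64.3 CPM with MG132 (fell by 1.76 ± 0.29 and 2.31 ± 0.30). MT2B2, at 170 and 180 CPM, had 41.1 and 42.1 CPM with CHX and 54.3 and 57.1 CPM with MG132 (fell by 1.67 ± 0.28 and 1.78 ± 0.29). None of the treated libraries overlapped the vehicle ones, and these 6 calls were kept under every alternative run. MT2A had 273 and 281 CPM with vehicle, 151 and 130 with CHX and 199 and 188 with MG132, and was not called with either (-0.58 and -0.65; edgeR adjusted p = 0.0787 and 0.0676). MERVL-int fell by 9.12 ± 0.70 and 8.14 ± 0.67.

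MER21B, an LTR, had 33.2 and 27.5 CPM with vehicle, 5.87 and 6.44 CPM with CHX and 8.62 and 8.60 CPM with MG132 (fell by 1.90 ± 0.35 and 1.94 ± 0.35; edgeR adjusted p = 0.00143 and 0.00194). With CHX, MLT2C1 went from 22.6 and 21.7 to 3.53 and 2.57 CPM (fell by 2.46 ± 0.37; edgeR adjusted p = 0.00055). LTR84b had 5.81 and 7.50 CPM with vehicle, 1.02 and 1.25 CPM with CHX (fell by 2.14; edgeR adjusted p = 0.00477) and 11.2 and 10.5 CPM with MG132, where it was not called. MER21B and MLT2C1 with CHX were thus lower in both treated libraries, and LTR84b lay on opposite sides of the vehicle libraries with the 2 drugs.

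The largest falls were in members that were scarce with vehicle. MER70-int, with 187 counts in the vehicle libraries, had 0 with CHX, at least 64.5-fold lower, and 2 with MG132, a ratio of 72.9 with a counting interval from 19.9 to 606. LTR91, with 87 counts, had 0 with CHX, at least 30.0-fold lower. MER21-int, with 386 counts, had 2 with CHX, a ratio whose counting interval runs from 54.9 to 1650. With MG132 it had 0 and 0.448 CPM (fell by 4.89; edgeR adjusted p = 0.00938). Without MG132 replicate 1 the adjusted p of MER21-int and MER70-int with MG132 was 0.0543 each, and LTR16D2 (3.05 and 1.94 to 0.0689 and 0.103 CPM) had 0.117, and 0.0883 without replicate 2. The CHX calls of the 3 named members were kept under every alternative.

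The 2 members called higher with CHX were LTR33B and MLT2C2. LTR33B had 1.54 and 3.37 CPM with vehicle and 6.50 and 9.21 CPM with CHX (2.07 ± 0.75; edgeR adjusted p = 0.037), and without CHX replicate 2 or vehicle replicate 1 the adjusted p was 0.122 or 0.162. MLT2C2 had 5.92 and 5.49 CPM with vehicle and 11.3 and 9.48 CPM with CHX (1.26 ± 0.41; edgeR adjusted p = 0.0251), and without CHX replicate 1, vehicle replicate 1 or vehicle replicate 2 it was 0.0731, 0.0811 or 0.0907. HERVL40-int had 129 and 122 CPM with CHX against 247 and 383 (fell by 0.93; edgeR adjusted p = 0.0236). Its adjusted p was 0.0754 and 0.0701 without CHX replicate 1 or 2, and without vehicle replicate 2 the fall was 0.50 (0.262). MER70A (36.01 and 32.01 CPM with CHX, 27.2 and 20.6 with MG132) and MER73 were not called with either drug.

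APH at 2 cells gave no called member in edgeR, beside 0.0% of all repeats higher and 0.197% lower; before adjustment (p under 0.05) 1 member was higher and 5 lower, and DESeq2 called 3. The members' median was -0.32 against -0.43. In simulated counts this comparison recovered 13.8% of 4-fold changes in rows drawn from all genes and repeats, so changes of that size could go uncalled. The share for members alone was not taken, and recovery in members with many counts may differ. The larger falls of MT2B1 and MT2B with CHX were called in the same fit. MT2B1 had 168 and 284 CPM with APH (-1.28; edgeR adjusted p = 0.126), and MT2B had 89.5 and 136 CPM (-1.34; edgeR adjusted p = 0.101). Of the reference subfamilies, MERVL-int (fell by 3.38) and MT2_Mm (fell by 2.80) were called (edgeR adjusted p = 0.0278 each), and MERVL_2A-int (-1.96; 0.071) and MT2C_Mm (-2.47; 0.101) were not. In both MT2B1 and MT2B the libraries with APH lay below both vehicle libraries, replicate 1 farther than replicate 2.

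At 4 cells none of the 96 tested members was called by edgeR with any drug. In simulated counts the 4-cell APH comparison recovered 16.2% of 4-fold and 43.8% of 8-fold changes, so changes of that size could go uncalled. Those shares are over rows drawn from all genes and repeats, not over members. With APH 0.0% of all repeats were called higher and 0.0% lower; before adjustment (p under 0.05) 2 members were higher and 4 lower, and DESeq2 called 1. With CHX the repeats' shares were 0.997% and 3.39%, 6 members were higher and 7 lower unadjusted, DESeq2 called 7, and edgeR called 1 without vehicle replicate 1. With MG132 they were 0.0997% and 0.698%, 9 members were higher and 3 lower unadjusted, and DESeq2 called 4. Medians over members were -0.29, 0.37 and 0.20, against -0.32, 0.24 and 0.23 over all repeats and 0.05, 0.44 and 0.0 over all genes. MT2B1 had 504 and 508 CPM with vehicle, 670 and 821 with CHX and 639 and 745 with MG132. HERVL40-int, at 2.31 and 1.44 CPM with vehicle, had 12.6 and 7.83 CPM with CHX and 12.8 and 4.77 CPM with MG132 (1.97 and 2.03; edgeR adjusted p = 0.161 and 0.289). In CPM all CHX and MG132 libraries of both members lay above both vehicle libraries. With APH, MT2B1 (572 and 453 CPM) and HERVL40-int (1.93 and 5.33 CPM) were not apart from vehicle. The fitted changes of MT2B1 were 0.12 ± 0.28 and 0.30 ± 0.28 (edgeR adjusted p = 0.882 and 0.728), and fitted values with CHX at 4 cells are lower than log2 CPM ratios by 0.45.

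The difference between a drug's effect at 4 cells and at 2 cells was tested as an interaction in a fit of all 18 embryo libraries. For CHX 25 of 100 tested members were higher at 4 cells and 1 lower, beside 34.6% and 1.23% of all repeats. The members' median difference was 1.75 against 1.77 over all repeats and 1.25 over all genes, so a difference near that size is shared by most rows. For MG132 16 were higher and none lower (0 at an unadjusted p under 0.05 and by DESeq2), beside 24.7% and 0.38%, with medians of 1.25, 1.43 and 0.42. For APH edgeR called none, beside 0.0% and 0.0%, with 4 higher and 3 lower before adjustment (p under 0.05) and 0 by DESeq2 (median 0.03 against 0.07). The CHX count of 26 was 12 without vehicle 4-cell replicate 2, 13 without vehicle 2-cell replicate 2, 14 and 16 without 4-cell CHX replicate 1 and 2, 15 without 2-cell CHX replicate 1 and 17 without vehicle 4-cell replicate 1. The MG132 count was 8 without 2-cell MG132 replicate 1, 10 without vehicle 2-cell replicate 2 and 10 without vehicle 4-cell replicate 2.

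By adjusted p, LTR87, MT2B1 and MER21B led for CHX and MT2B1, LTR87 and MER70A for MG132. LTR87 had 4.17 and 5.23 CPM with vehicle and 0.212 and 0.203 CPM with CHX at 2 cells, and 3.10 and 2.03 CPM with vehicle and 13.6 and 23.3 CPM with CHX at 4 cells, a difference of 6.54 ± 1.0 (edgeR adjusted p = 0.000364). For MG132 its difference was 4.81 ± 0.96 (edgeR adjusted p = 0.00248). MT2B1 had a difference of 2.17 ± 0.44 for CHX (edgeR adjusted p = 0.00242) and 2.66 ± 0.45 for MG132 (edgeR adjusted p = 0.000837). MER21B had 2.50 ± 0.52 for CHX (edgeR adjusted p = 0.00257), and MER70A 3.87 ± 0.78 for MG132 (edgeR adjusted p = 0.00262). MER70A was scarce in vehicle 4-cell libraries, at 0.213 and 0.585 CPM (24 counts), and had 3.15 and 6.27 CPM with MG132. That change at 4 cells was itself not called (3.43; edgeR adjusted p = 0.135), nor was the one at 2 cells. The single member called lower for CHX was MLT2C2 (-2.39; edgeR adjusted p = 0.0167), at 6.54 and 6.05 CPM with CHX at 4 cells and 9.20 and 11.8 with vehicle, and its call was lost without 6 of the 8 libraries in turn, all but 2-cell CHX replicate 2 and vehicle 4-cell replicate 1 (edgeR adjusted p = 0.0519 to 0.0859). The calls of LTR87, MT2B1 and MER21B for CHX and of MT2B1, LTR87 and MER70A for MG132 were kept under every alternative run. Both drugs again share their vehicle libraries.

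**Figure D5:**
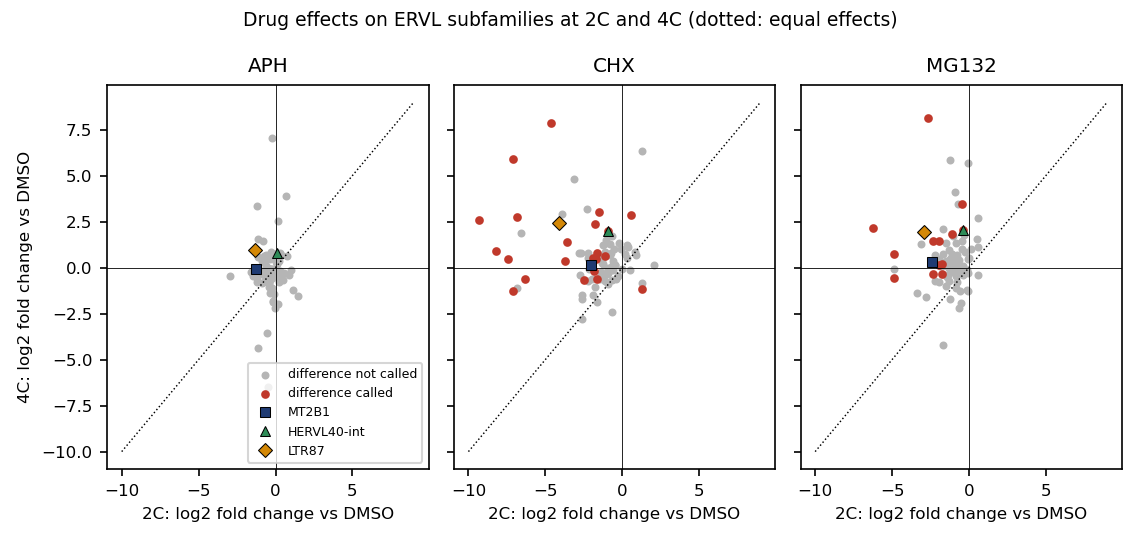
Each member's log2 fold change against vehicle at 2C (horizontal) and 4C (vertical) for APH, CHX and MG132, red where the difference between stages was called. With CHX and MG132 most red points lie left of 0 and above the dotted line of equal effects, among them LTR87 (diamond) at -4.08 and 2.42 with CHX; MT2B1 and HERVL40-int have markers of their own, and fitted values of members with 0 counts in a group depend on the prior count.

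In stem cells the members were at low levels and few were called. With CHX 2 of 79 tested were higher and none lower by edgeR (0 lower also at an unadjusted p under 0.05 and by DESeq2), beside 0.583% and 0.932% of all repeats, with a median of 0.26 against 0.17. ERVL-E-int went from 2.54 and 3.25 to 6.80 and 6.07 CPM (1.06 ± 0.18; edgeR adjusted p = 0.0356) and LTR16D from 0.139 and 0.0903 to 0.965 and 0.769 CPM (2.78 ± 0.47; edgeR adjusted p = 0.0342). Both lay apart from vehicle in both libraries, but no fit without 1 of the 4 libraries called either (edgeR adjusted p = 0.172 to 0.418 and 0.201 to 0.394). The MT2 LTRs moved by 0.24 to 0.38 and none was called, nor were the references MT2C_Mm (0.10) and MERVL_2A-int (0.39), while MERVL-int rose by 2.62 ± 0.15 and MT2_Mm by 2.02 ± 0.19. With MG132 edgeR called none, beside 0.0% and 0.0% of all repeats; before adjustment (p under 0.05) 8 members were higher and 0 lower, and DESeq2 called 0 (median 0.24 against 0.27). Without MG132 replicate 1 the count was 10 and without replicate 2 it was 8. MT2B, at 60.9 and 74.5 CPM with vehicle, had 81.7 and 88.2 CPM with CHX and 91.0 and 70.1 CPM with MG132.

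Mouse endogenous retroviruses are known to be held silent by several routes that differ between families. These include the histone methyltransferase SETDB1 with TRIM28, DNA methylation and chromatin assembly factors. MERVL is switched on by 2-cell factors such as DUX, OBOX3 and ZSCAN4. Which of these act on the older members was not tested. Of a list of 18 activators or 2-cell factors and 40 silencing genes, all 58 were matched. From MII to the vehicle 2-cell embryo 7 activators were higher and 4 lower, and 7 silencing genes higher and 9 lower, beside 10.1% of all genes in either direction. Zscan4d, one of several near-identical copies whose counts are uncertain, went from 0.689 and 1.42 to 236 and 449 CPM (7.51 ± 0.93), and Obox3 from 0.0725 and 0.106 to 103 and 62.6 CPM (8.98 ± 0.70). Dppa4, an upstream factor of Dux, rose by 3.73 ± 0.32. Mphosph8, a subunit of the HUSH silencing complex, fell by 4.67 ± 0.42, the maintenance DNA methyltransferase Dnmt1 by 2.92 ± 0.27 and the oocyte homeobox gene Obox1 by 2.51 ± 0.38.

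Both Zscan4d and Obox3 fell at 2 cells, with CHX (-6.29 ± 0.59 and -6.03 ± 0.70) and with MG132 (-4.35 ± 0.53 and -5.21 ± 0.67). Of the 18 activators 3 were higher and 6 lower with CHX, and of the 40 silencing genes 10 were higher and 6 lower, beside 11% and 13% of all genes. With MG132 6 activators were lower and none higher, and 7 silencing genes were higher and 2 lower, beside 5.1% and 4.68%. At 4 cells 8 activators were higher and 5 lower with CHX, and 4 silencing genes higher and 9 lower, beside 8.77% and 10.3% of all genes. With MG132 at 4 cells 1 activator was higher and 2 lower, and 1 silencing gene higher and 1 lower, beside 3.06% and 4.33%. At 2 cells Dnmt1 rose from 43.2 and 32.6 CPM to 676 and 606 CPM with CHX (4.48 ± 0.32) and to 489 and 390 CPM with MG132 (3.41 ± 0.31), and Mphosph8 rose by 3.88 ± 0.47 and 2.98 ± 0.45. Kdm6b, a histone demethylase, rose with CHX (2.76 ± 0.29). With APH the 2 activators called were Zscan4d (fell by 3.42; edgeR adjusted p = 0.0379) and Obox3 (fell by 3.96; 0.0381), beside 0.00893% of genes higher and 0.192% lower; neither held without APH replicate 1 (0.154 and 0.165), nor Obox3 without vehicle replicate 1 (0.0971).

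Between 2 and 4 cells 5 activators were higher and 12 lower, and 12 silencing genes higher and 6 lower, beside 19.6% and 29.4% of all genes. Dppa4 rose by 5.33 ± 0.32 and Sumo2 by 7.27 ± 0.37, and Zscan4d fell by 5.45 ± 0.84 and Obox5, an oocyte homeobox gene, by 7.21 ± 0.41. With H3.3K4M 1 activator (Nelfa) was higher and 5 (Zscan4c, Zscan4d, Obox1, Obox5 and Gata3) lower, and 1 silencing gene (Pias4) was higher and 3 (Dnmt3l, Atrx and Mga) lower, beside 8.64% and 13.7%. Zscan4d went from 6.34 and 3.61 to 0.220 and 0.0294 CPM (fell by 5.30 ± 0.53), Obox5 from 3680 and 3720 to 1770 and 1640 CPM (fell by 1.03 ± 0.20), and the DNA methyltransferase cofactor Dnmt3l from 39.5 and 48.6 to 23.3 and 19.3 CPM (fell by 0.97 ± 0.21). Atrx, part of a complex that deposits H3.3, fell by 0.69 ± 0.17 (edgeR adjusted p = 0.00973; 0.0676 without H3.3WT replicate 1). Without H3.3WT replicate 1 Mga had 0.218 and Obox1 0.0878, Obox1 had 0.148 without H3.3WT replicate 2, and Nelfa was not called without any 1 of the 4 libraries (0.0816 to 0.199).

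In stem cells with CHX 4 activators (Zscan4c, Zscan4d, Zfp352 and Duxf3) were higher and 2 (Nr5a2 and Tead4) lower, and 1 silencing gene (Dnmt3l) was higher and 9 lower, beside 13.6% and 13.4% of all genes. Duxf3, the Dux gene, went from 0.139 and 0.135 to 2.22 and 2.53 CPM (3.98 ± 0.42) and Zscan4d from 1.94 and 1.62 to 15.3 and 16.3 CPM (3.06 ± 0.16). Dnmt3l rose by 1.70 ± 0.17. Setdb1 fell by 0.54 ± 0.10 (edgeR adjusted p = 0.00867), which did not hold without any 1 of the 4 libraries (0.0846 to 0.113). These changes stood beside 2 called members among 79.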

How the data were processed

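Each library has a deposited table of raw, whole-number read counts with 55335 genes and 1153 repeat subfamilies. The submitters' processing notes name cutadapt 1.16, STAR and the build mm10. Which program counted, on which repeat annotation, whether by strand and how it shared out reads that map to many copies is not given in the sources used here. A table of gene names gave symbols for 55154 identifiers. Samples were grouped by their labels.

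Levels are CPM over all rows. Tests used edgeR 4.0.16 in R 4.3.3: filterByExpr by group (minimum count 10, minimum total 15), TMM over genes and repeats, robust dispersions and the quasi-likelihood F-test, with Benjamini-Hochberg adjustment over repeat subfamilies and, separately, genes (threshold 0.05). P14, MII, ESC, 2C and 4C were fitted alone, steps between stages in a fit of MII, vehicle and 12-month 2C and vehicle 4C or in a fit of P14 and MII, and 3 interactions over the embryos. SE is the fold change over the root of F. Groups at 0 counts were set to 3 counts over the group; intervals are exact at 95% and cover counting error alone, as no molecular identifiers are described.

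Named were the 12 members of highest mean CPM, per comparison the 3 largest called changes per direction with at least 1 CPM and no overlap, per interaction the 3 smallest p, every member of counts of 5 or fewer, and at most 4 called regulators per direction; further members and the regulators within that limit were chosen after their values were seen. The members, lists and tests were chosen with earlier results of these data known. Alternatives were DESeq2 1.42.0 (size factors and the Wald test), no filter, library sizes from genes, adjustment over all rows, a replicate block and leaving out each library. Same-numbered libraries of the 4 treated or vehicle 2-cell groups deviated together (r of 0.2243 to 0.48 across 7480 rows in 6 pairs). No label pairs them. The main fits, and so the calls given above, did not treat them as pairs. A replicate term entered only in the replicate block alternatives. The pipeline was tested on simulated counts with 200 changed rows, drawn at random from all fitted genes and repeats. Recovery was not taken for the members alone. Of 4-fold changes it recovered 95.7% in P14 (15751 rows) and 13.8% in the 2-cell APH comparison (21910 rows), and of 8-fold changes there 52.5%. For 4-fold and 8-fold changes it recovered 93% and 96.9% in stem cells with CHX and 8.57% and 42.6% by age in MII oocytes. The shares were 16.2% and 43.8% with APH at 4 cells and 13.8% and 32.1% from 8-week oocytes to embryos. The result of 1 regulator is not reported here.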

Additional observations from a re-analysis of the deposited data

Results flagged for a closer look

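The effect of CHX differed between 4-cell and 2-cell embryos by the interaction test (edgeR, adjusted p under 0.05), as 4-cell minus 2-cell effect, by 6.54 for LTR87, 2.50 for MER21B, 2.96 for HERVL40-int, 2.17 for MT2B1, 1.81 for RMER15-int, 1.73 for RMER10B and 1.12 for MT2B2. The MT2B2 difference lies below the medians of all genes (1.25) and all repeats (1.77) and was not called when any 1 library was left out. That of RMER10B lies below the latter median. RMER15-int lost its call without vehicle 2-cell replicate 2, 4-cell CHX replicate 1, either vehicle 4-cell replicate or 2-cell CHX replicate 1 (edgeR adjusted p = 0.0536 to 0.105), and RMER10B without the first 4 of these (0.0506 to 0.0819).

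For MG132 the differences were 2.66 for MT2B1, 4.81 for LTR87, 3.87 for MER70A, 1.92 for MT2B, 2.37 for HERVL40-int, 1.39 for MT2B2 and 2.07 for MER21B, against a median of 0.42 over all genes and 1.43 over all repeats, above the difference of MT2B2. MER21B lost its call without 2-cell MG132 replicate 1 (edgeR adjusted p = 0.0545). HERVL40-int lost it without vehicle 2-cell replicate 2, 4-cell MG132 replicate 1 or vehicle 4-cell replicate 2 (0.0513 to 0.0791), and MT2B2 without these, 4-cell MG132 replicate 2 or 2-cell MG132 replicate 1 (0.0562 to 0.105). With 2 libraries per group, no test of single libraries that stand apart could be made.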

How the results depend on the processing

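No direction of a named call was reversed under any alternative. Of 162 called single results (members and regulators), 160 kept their call with DESeq2 size factors, 159 with the DESeq2 Wald test, 159 with library sizes from genes, 153 with adjustment over genes and repeats together, 146 without the filter and 146 with the replicate block; of 720 such results with 1 library left out, 542 did. Counts of called members moved by over 1.5 times as follows; the cause was not tested. DESeq2 called 15 members with H3.3K4M, 8 by age in MII oocytes, 1 with CHX in stem cells, 3 with APH at 2 cells, 1, 7 and 4 with APH, CHX and MG132 at 4 cells, 29 from 12-month oocytes to embryos, and 41 and 37 in the CHX and MG132 interactions. Without the low-count filter the counts were 6 by age in MII oocytes, 4 and 1 with CHX and MG132 in stem cells, 2 with APH at 2 cells, and 1, 7 and 1 with APH, CHX and MG132 at 4 cells. Adjustment over genes and repeats gave 7 with CHX in stem cells, 16 with MG132 at 2 cells and 2 with CHX at 4 cells. Library sizes from genes gave 26 from 12-month oocytes to embryos. The replicate block gave 17 from 8-week oocytes to embryos and 0 with CHX in stem cells; no other count moved by over 1.5 times. The crossed block, added after seeing the data because same-numbered libraries went against each other in P14 (-0.5504) and MII (-0.2146), gave 33 members with H3.3K4M and 1 by age. Leaving out 1 library gave 17 to 21 with H3.3K4M, 0 to 5 by age in MII oocytes, 0 with CHX and 0 to 10 with MG132 in stem cells, 21 to 36 with CHX and 7 to 21 with MG132 at 2 cells, 0 to 1 with CHX at 4 cells, 9 to 18 and 4 to 9 from oocytes to embryos of young and 12-month females, 16 to 24 from 2 to 4 cells, 18 to 34 from P14 to MII, and 12 to 19 and 8 to 15 in the CHX and MG132 interactions. Scaling moved the median gene by 0.29 and 0.19 from oocytes to embryos of young and 12-month females (library sizes from genes) and by 0.21 or -0.15 from 2 to 4 cells (DESeq2 size factors or genes), and the MG132 interaction by 0.14 or 0.22 (the same); no named call changed direction. Setting members at 0 to their floor moved no median by more than 0.01. In simulated data 0% of 2-fold changes were recovered in the 2-cell APH comparison and 59.4% in P14; the part of depth was not tested.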
